A study of Rattus norvegicus with 8 samples.

Results

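Expression of 6 chemokine genes of neutrophil and lymphocyte recruitment, Cxcl1, Cxcl2, Cxcl6, Ppbp, Pf4 and Ccl20, and of the neutrophil chemokine receptor genes Cxcr2 and Cxcr1 was followed through every sample of a rat nerve injury series. These 8 genes were chosen by symbol, and all 8 were among the 12765 gene symbols with deposited values. Where a gene had several array probes, the one with the highest mean value was read. RNA came from adult female Sprague-Dawley rats and from cultured rat Schwann cells, the glia that wrap peripheral axons, and was hybridised to 8 one-colour Agilent arrays, 1 for each group. The nerve groups of day 1 were the distal and the proximal segment of the left sciatic nerve, cut through at mid-thigh, and the uncut contralateral right nerve, whose label mentions a PBS injection site. The cord groups, taken on day 5, carry the labels dorsal hemisection and, for the control, C-level. Day 5 is counted from an injection in these labels but from an injury in the protocol, and no source used here names an injected substance. Tissue of 3 animals was pooled for each nerve and each cord sample. The Schwann cells came from newborn rats (postnatal days 1 to 3), were cleared of fibroblasts with antibody and complement, and were grown with serum, pituitary extract and 4 µM forskolin to passages 3 to 7. They received S100A8/A9, a calcium-binding protein complex abundant in neutrophils, at 5 µg/ml for 1 h or 24 h, or no stimulus. The unstimulated culture was of 24 h only, so at 1 h the stimulus and the time in culture cannot be told apart.

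Cxcl1, Cxcl2, Cxcl6 and Ppbp belong to the CXC chemokines that carry the amino acids glutamate, leucine and arginine before their cysteines and attract neutrophils, mainly through the receptor Cxcr2. Cxcl1 and Cxcl2 are classical target genes of the transcription factor NF-kB, which interleukin 1, tumour necrosis factor and Toll-like receptors switch on, and resident cells of an injured tissue as well as arriving leukocytes can make them. Ccl20 is also induced through NF-kB, but its receptor is Ccr6, found on lymphocytes and dendritic cells. Pf4 (platelet factor 4) and the Ppbp product are stored in platelet granules; Pf4 lacks the 3 amino acids named above and is also transcribed in tissue macrophages.

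Sample names follow the column headings in the authors' table of log2 values. By rank over all probes each column matched 1 scanner file, and for 7 of 8 samples that file was filed under a different sample (only the distal nerve had its own). Neuronal Snap25, at 12.45 and 14.80 in the 2 cord columns and at most 5.12 elsewhere, and the Schwann cell factor Sox10, at 14.37 to 14.94 in the 3 culture columns and at most 12.87 elsewhere, go with the headings. Labels within 1 tissue are not settled by this, so the direction of every difference below rests on the headings. With the scans taken as filed, 12 of the 25 member differences that could still be given, out of 28 that reached 2-fold here, had the opposite sign. With 1 array a group there is no replicate check and no test. Errors after ± are pooled over replicate spots of probes of similar signal on the same arrays and are technical. They hold no spread between arrays. The share of probes well above background ran between 66.7% and 77.6% over the arrays. Where a gene was not above it, its difference is given as a bound. The bound was taken against the gene's own reading or the lowest signal well above background on that array, whichever was higher. These lowest signals ran from 2.20 to 3.88 on the log2 scale. In bulk samples fewer cells of a type and less RNA per cell cannot be told apart.

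The promoters of Cxcl1, Cxcl2, Cxcl6 and Ccl20 are shown first, because each holds a match to the NF-kB consensus, which the choice of genes did not use. The sequences are RefSeq's for assembly GRCr8, 250 bases before to 50 after each annotated start, 5′ to 3′ on the strand of the gene, and a promoter entry was matched for 7 of the 8 genes. Capitals mark the stringent NF-kB consensus, searched on both strands. In Cxcl1 (chr14:17479272-17479571, minus strand) it lay at -84 to -75 from the start, in Cxcl2 (chr14:17467206-17467505, minus strand) at -74 to -65, and in Cxcl6 (chr14:17596368-17596667, minus strand) at -88 to -79. In Ccl20 (chr9:91836909-91837208, plus strand) it lay at -89 to -80 and read on the opposite strand.
Cxcl1: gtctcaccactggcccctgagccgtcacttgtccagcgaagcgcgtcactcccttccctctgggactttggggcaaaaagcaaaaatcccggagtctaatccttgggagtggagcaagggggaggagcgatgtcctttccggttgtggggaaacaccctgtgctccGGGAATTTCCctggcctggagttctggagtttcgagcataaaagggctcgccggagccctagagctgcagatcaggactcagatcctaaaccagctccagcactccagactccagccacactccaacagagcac
Cxcl2: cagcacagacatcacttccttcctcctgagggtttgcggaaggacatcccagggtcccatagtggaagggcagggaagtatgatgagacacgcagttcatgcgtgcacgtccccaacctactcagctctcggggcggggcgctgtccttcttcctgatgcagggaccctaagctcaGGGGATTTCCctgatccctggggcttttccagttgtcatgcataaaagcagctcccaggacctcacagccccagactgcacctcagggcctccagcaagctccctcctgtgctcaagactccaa
Cxcl6: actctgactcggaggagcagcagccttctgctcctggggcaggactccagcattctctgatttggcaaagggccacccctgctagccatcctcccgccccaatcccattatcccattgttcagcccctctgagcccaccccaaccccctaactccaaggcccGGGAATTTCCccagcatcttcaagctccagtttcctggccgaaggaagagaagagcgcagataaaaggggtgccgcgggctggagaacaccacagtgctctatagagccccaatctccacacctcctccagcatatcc
Ccl20: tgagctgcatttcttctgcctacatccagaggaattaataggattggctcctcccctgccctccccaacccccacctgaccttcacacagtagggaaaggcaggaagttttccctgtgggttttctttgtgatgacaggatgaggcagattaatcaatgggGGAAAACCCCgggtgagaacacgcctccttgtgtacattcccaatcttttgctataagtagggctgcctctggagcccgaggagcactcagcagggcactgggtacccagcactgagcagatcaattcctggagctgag
The letters are the same in Cxcl1 and Cxcl6, GGGAATTTCC, while Cxcl2 had GGGGATTTCC and Ccl20 GGGGTTTTCC on its opposite strand. Cxcl1, Cxcl2 and Cxcl6 are genes of 1 family in 1 stretch of chromosome 14, so their matches cannot be counted as separate draws. Over all 33469 rat promoters of the same length, 238 held a match, or 0.711%. A looser form of the consensus, which overlaps it, was in 4.18% of them and in the same 4 of these genes. The AP-1 motif TGANTCA, both strands searched, was in 7.33% of all promoters and in none of the 7. Neither form of the NF-kB consensus was found in the windows of Ppbp, Cxcr1 or Cxcr2. The window of Cxcr2 (chr9:83178395-83178694, plus strand) is given for comparison, since its level in the nerve went with that of Cxcl1.
Cxcr2: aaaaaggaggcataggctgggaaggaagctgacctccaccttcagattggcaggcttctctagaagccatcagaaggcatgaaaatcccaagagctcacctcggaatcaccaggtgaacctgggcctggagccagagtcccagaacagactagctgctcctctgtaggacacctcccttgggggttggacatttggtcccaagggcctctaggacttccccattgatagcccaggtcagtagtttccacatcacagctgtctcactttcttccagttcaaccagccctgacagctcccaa
A match describes letters in the window and was not tested as a binding site.

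In the cut nerve Cxcl1, Cxcl2 and Ccl20 were among the genes farthest above the contralateral side, and they stood higher in the proximal than in the distal segment. Distally Cxcl1 was 14.2-fold and Cxcl2 16.8-fold higher, and Ccl20, below background in the contralateral nerve, was at least 53.8-fold higher. The receptor Cxcr2 was higher too, by 10.9-fold, while the platelet-stored Pf4 was 2.95-fold higher and the bound for Ppbp stayed under 2-fold. Of the 7 members measured in the distal comparison 5 were at least 2-fold higher and 0 lower, where over all genes 13.4% passed 2-fold upwards and 14.3% downwards. In the proximal comparison 6 of 7 were higher and 0 lower, against 11.1% higher and 11.8% lower over all genes. Cxcl6, Ccl20 and Ppbp counted as measured only through the cut segments, so their direction was fixed by the filter; the other 4 were measured on all 3 nerve arrays and were higher in both. With bounds taken at their value, the median log2 difference of the measured members was 3.44 distally, against 0.01 over all genes, and 4.20 proximally, against 0. Both comparisons use the same contralateral array.

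Cxcl1 (NM_030845), a principal neutrophil attractant of rodents, stood at 11.26 in the distal nerve, 12.43 in the proximal nerve and 7.43 in the contralateral nerve. Both cut segments were thus high. The difference was 3.83 ± 0.05 distally (rank 87 from the highest of 12131 genes) and 5.00 ± 0.05 proximally (31.9-fold, rank 34 of 12242). Its 10 spots lay within 0.31 of each other on each of these arrays, so the steps were far larger than the technical spread.

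Cxcl2 (NM_053647), a macrophage-derived ligand of the same receptor, stood at 10.68 in the distal nerve, 12.92 in the proximal nerve and 6.61 in the contralateral nerve. It had the widest gap between the cut segments of the measured members. The difference was 4.07 ± 0.22 distally (rank 66) and 6.31 ± 0.22 proximally (79.2-fold, rank 10). With another background correction and scaling of the scans (normexp with quantile normalization, called normexp below) the differences were 3.33 and 5.53.

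Cxcl6 (NM_022214), a further ligand of this family, stood at 3.78 in the distal nerve and 5.41 in the proximal nerve, and was not well above background in the contralateral nerve (1.74). It was detected in no cord sample and no culture, so these cut segments were the only samples with a measurable level. The difference was at least 0.80 ± 0.34 distally and at least 2.43 ± 0.24 proximally (at least 5.38-fold). The distal value is weak: of its 2 spots, which read 3.70 and 4.55 on the log2 scale of processed signal, 1 was well above background. With normexp the proximal bound was at least 0.49, and with more than 0.5 of the spots required above background it was at least 1.54.

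Ccl20 (NM_019233), the Ccr6 ligand, stood at 8.80 in the distal nerve and 9.79 in the proximal nerve, and was not well above background in the contralateral nerve (3.05). Its difference was at least 5.75 ± 0.61 distally (rank 11) and at least 6.74 ± 0.61 proximally (at least 106.6-fold, rank 4). These bounds were taken against the contralateral reading itself, and they depend on the processing. With normexp they were at least 2.67 distally and at least 3.57 proximally. With more than 0.5 of the spots required above background they were at least 4.93 and at least 5.91. A second probe for Ccl20 read 8.26 distally, 9.16 proximally and 1.81, not above background, in the contralateral nerve, so both probes had the gene high in the cut segments only.

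Pf4 (NM_001007729) was well above background in the uncut nerve too, at 14.76 in the distal nerve, 14.42 in the proximal nerve and 13.20 in the contralateral nerve. The difference was 1.56 ± 0.03 distally and 1.22 ± 0.03 proximally (2.33-fold). Ppbp (NM_153721), which encodes the precursor of neutrophil-activating peptide 2, stood at 4.40 distally, 4.64 proximally and 3.93, not well above background, in the contralateral nerve. Its differences of at least 0.47 ± 0.28 and at least 0.71 ± 0.29 did not reach 2-fold as bounds.

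Cxcr2 (NM_017183), the receptor of Cxcl1, Cxcl2, Cxcl6 and the processed Ppbp product, stood at 7.99 in the distal nerve, 8.74 in the proximal nerve and 4.54 in the contralateral nerve. The difference was 3.44 ± 0.54 distally and 4.20 ± 0.53 proximally (18.4-fold, rank 63), and with normexp 1.67 and 2.29. Cxcr1 (NM_019310), its close relative with a narrower choice of ligands, was not well above background in any of the 3 nerve samples, so no difference could be given. The receptor of Ccl20 was higher as well. Ccr6 (NM_001013145) stood at 8.99 distally, 8.47 proximally and 5.75 contralaterally, a difference of 3.23 ± 0.22 and 2.72 ± 0.22.

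**Figure D1:**
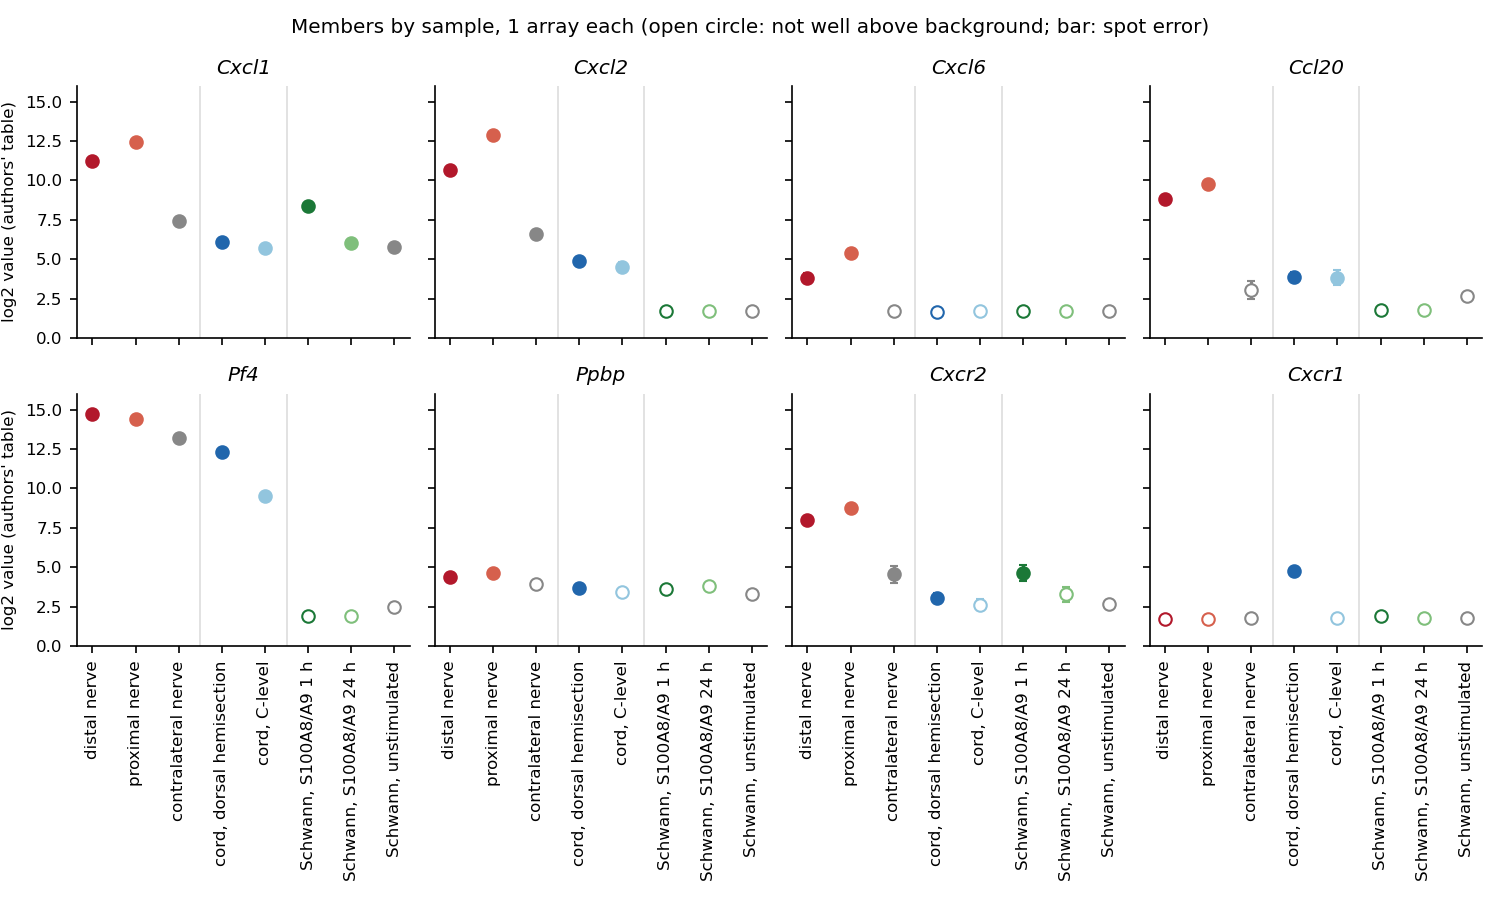
The authors' log2 value (vertical axis) of each of the 8 members in the 8 samples, with filled circles well above background, open circles not, and bars for the spot error. Cxcl1, Cxcl2, Cxcl6, Ccl20 and Cxcr2 are highest in the 2 cut nerve segments, Pf4 is high in all nerve and cord samples, and in the Schwann cultures Cxcl1 alone is above background in all 3.

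**Figure D2:**
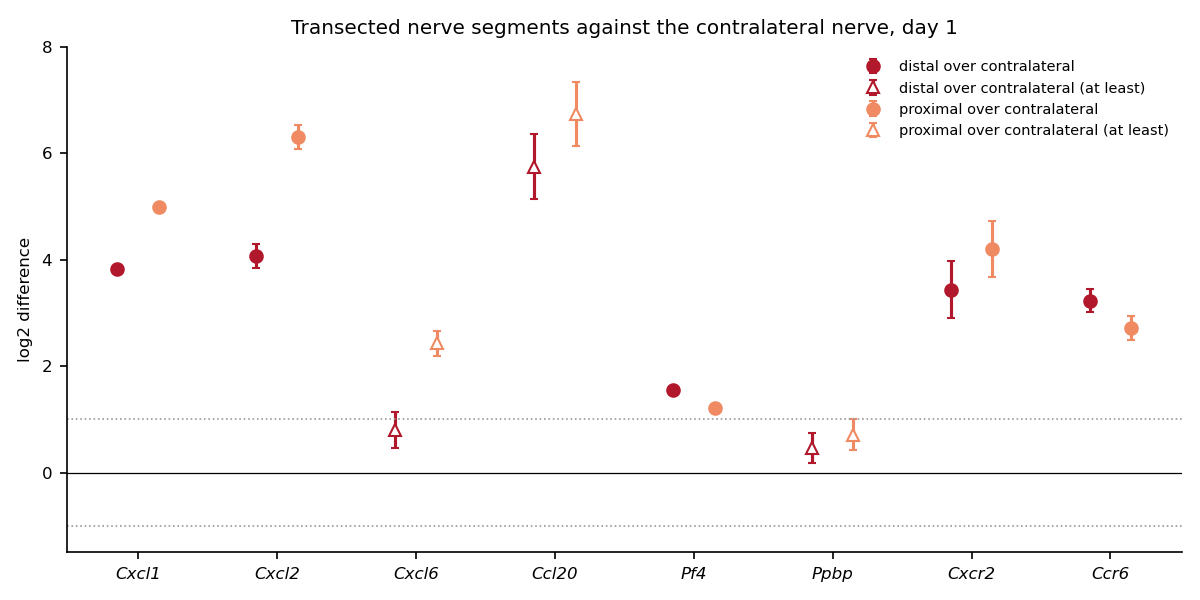
The log2 difference (vertical axis) of the distal and the proximal segment over the contralateral nerve for 7 members and the Ccl20 receptor Ccr6; circles are measured, open triangles are lower bounds, bars are spot errors and dotted lines mark 2-fold. For Cxcl1, Cxcl2, Cxcl6, Ccl20 and Cxcr2 the proximal value lies above the distal one, and for Pf4 and Ccr6 below it.

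Set directly against each other, the distal segment had lower levels of Cxcl1, Cxcl2 and Cxcl6 than the proximal one. Cxcl2 was lower distally by a log2 difference of -2.24 ± 0.06, Cxcl6 by -1.63 ± 0.38 (-0.38 with normexp) and Cxcl1 by -1.17 ± 0.03. Ccl20, at -0.99 ± 0.07, and Cxcr2, at -0.75 ± 0.12, did not reach 2-fold. Pf4, at 0.34 ± 0.02, and Ccr6, at 0.52 ± 0.08, lay on the other side of 0, and Ppbp was at -0.24 ± 0.12. In all, 3 of 7 measured members were at least 2-fold lower and 0 higher, where 1.94% of all genes were lower and 1.24% higher.

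Marker genes of leukocytes, muscle, Schwann cells and fibroblasts differed with the cut, and their part in these values was not tested. Of 16 neutrophil genes with values, 15 were above background in the distal nerve, 16 in the proximal nerve and 11 in the contralateral nerve, with log2 summed levels of 15.65, 15.33 and 12.40. Over the contralateral nerve 12 of these 16 genes were at least 2-fold higher in each segment. Elane was lowest in both, at most -2.13 distally, the 1 gene at least 2-fold lower there, and -0.88 proximally. Between the segments 1 neutrophil gene was at least 2-fold higher distally, Retnlg (2.60), and 3 were lower (median -0.2). The lowest were Il1r2 (-1.74) and Elane (at most -1.25). The summed levels include Retnlg, at 14.35 distally and 11.74 proximally. Schwann cell and myelin genes were at least 2-fold lower for 7 of 10 distally and 5 of 10 proximally (medians -1.74 and -1.16), with 1 higher in each, the neurotrophin receptor gene Ngfr. Fibroblast genes were lower for 6 of 8 distally and 5 of 8 proximally (medians -1.49 and -1.27), with 0 higher. Skeletal muscle genes were highest in the proximal segment, with log2 summed levels of 12.99 in the distal nerve, 16.23 in the proximal nerve and 11.13 in the contralateral nerve; 10 of 10 were at least 2-fold lower in the distal than in the proximal segment (median -3.68). Monocyte and macrophage genes ran the other way between the segments, at 17.83 distally, 17.33 proximally and 15.75 contralaterally. The Ccr6 lymphocyte and dendritic cell list had 7 of 7 genes above background distally, 6 proximally and 3 contralaterally. Over the contralateral nerve 4 of 7 were at least 2-fold higher distally and 4 of 6 proximally, and 0 were lower. Ccr6 itself was the highest of them, Zbtb46 was at 0.31 and 0.34, and Cd4 was lowest, at -0.35 and -0.83.

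Pf4 and Ppbp share platelets as a known source. Pf4 passed 2-fold in both cut segments and the bounds for Ppbp did not. Of 9 platelet and megakaryocyte genes, 1 was at least 2-fold higher distally and 2 proximally, with medians of 0.14 and 0.17. The exceptions were Thbs1, a secreted matrix glycoprotein that other cells make too (at least 3.25 distally and at least 3.41 proximally), and proximally the receptor Clec1b (1.18, against 0.58 distally). Gp9, a subunit of the platelet von Willebrand factor receptor, was at -0.11 in both. In each Schwann culture 6 of these 9 genes were above background. Gp9 stood at 5.95 at 1 h, 6.33 at 24 h and 6.14 unstimulated. Gp5, a further subunit, stood at 8.54, 8.41 and 8.58, against 7.81 distally, 8.0 proximally and 7.83 contralaterally. The platelet content of the nerve cannot be read from Gp9 and Gp5. Clec1b and F13a1 were not above background in any culture. Clec1b stood at 8.22 distally, 8.82 proximally and 7.64 contralaterally, and F13a1 at 11.08, 10.91 and 10.76. Of 12 monocyte and macrophage genes, 11 were at least 2-fold higher distally and 8 proximally, with medians of 1.98 and 1.33, among them the scavenger receptor Msr1 (3.78 and 3.33); Adgre1 was lowest, at 0.01 and -0.80.

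**Figure D3:**
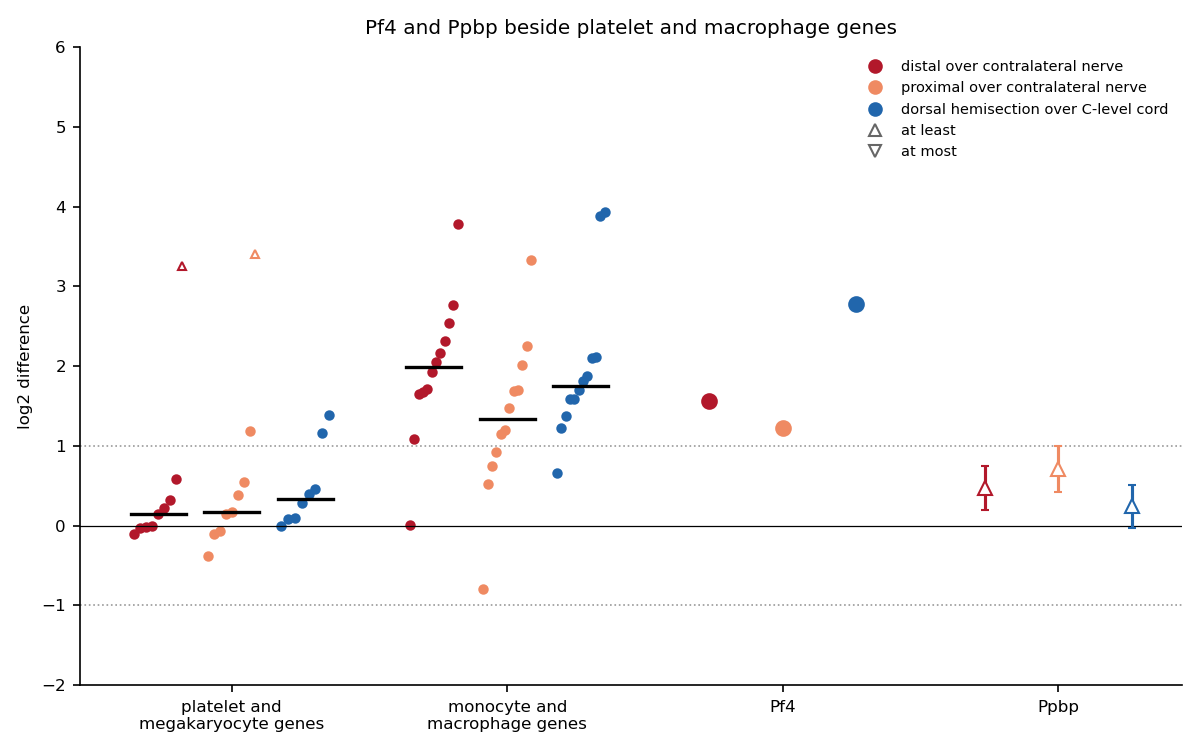
Log2 differences (vertical axis) of each platelet and megakaryocyte gene, each monocyte and macrophage gene, Pf4 and Ppbp in the distal and proximal nerve over the contralateral nerve and in the dorsal hemisection over the C-level cord; black bars are list medians, open triangles are lower bounds and dotted lines mark 2-fold. Pf4 lies at 1.56, 1.22 and 2.78, within the span of the macrophage genes, and the bounds for Ppbp lie under 2-fold. In the nerve Pf4 also lies within the span of the platelet genes, and in the cord it lies above it. The cell source of Pf4 was not tested.

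In the cord the pattern was different: Pf4 and Cxcr1 were at least 2-fold higher in the dorsal hemisection, and Cxcl1, Cxcl2 and Ccl20 did not reach 2-fold. Pf4 stood at 12.32 in the dorsal hemisection and 9.54 in the C-level cord, a difference of 2.78 ± 0.03 (6.87-fold, rank 135 of 12196). Cxcr1 stood at 4.75 in the dorsal hemisection and was not well above background in the C-level cord (1.76), a difference of at least 1.99 ± 0.21 (at least 0.40 with normexp, a bound under 2-fold). The dorsal hemisection was the only sample with Cxcr1 well above background; its 2 spots read 5.04 and 5.06, and the spots of the other 7 arrays lay between 1.24 and 2.26. Its direction was fixed by the filter, since it counted only through that sample. These 2 of 7 measured members compare with 10.2% of all genes at least 2-fold higher, and 0 members were lower, where 9.24% of all genes were.

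Cxcl1 stood at 6.10 in the dorsal hemisection and 5.69 in the C-level cord, a difference of 0.41 ± 0.08. Cxcl2 stood at 4.88 in the dorsal hemisection and 4.51 in the C-level cord, and the difference of 0.37 ± 0.34 is close to its spot error. Ccl20 differed by 0.08 ± 0.56, less than its error, and the second Ccl20 probe was not above background in either cord sample. Cxcr2, at 3.07 in the dorsal hemisection and not well above background in the C-level cord, differed by at least 0.32 ± 0.47, and its call in the dorsal hemisection rests on 1 of 2 spots. Ppbp differed by at least 0.24 ± 0.27, and Cxcl6 was below background in both. Ccr6, the receptor of Ccl20, was higher at 6.36 in the dorsal hemisection, against 4.03 in the C-level cord (2.33 ± 0.48).

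Marker genes of several cell types also differed between the 2 cord samples, and their part was not tested. Monocyte and macrophage genes were higher in the dorsal hemisection for 11 of 12 (median 1.76), with Msr1 at 3.93 and Cd68 at 3.88, and neutrophil genes for 10 of 14 (median 1.61), with the collagenase Mmp8 at least 3.36. Neuronal genes were lower for 7 of 8 (median -1.33), with Snap25 at -2.36, and fibroblast genes were higher for 5 of 8 (median 1.66), with Col1a1 at 4.18. Of 8 platelet genes 2 were higher (median 0.33), Clec1b at 1.39 and P2ry12, a receptor shared with microglia, at 1.16.

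In cultured Schwann cells Cxcl1 was the one ligand with a measurable level, and it was higher 1 h after S100A8/A9. It stood at 8.37 at 1 h, 6.04 at 24 h and 5.75 in the unstimulated culture. The difference over the unstimulated culture was 2.62 ± 0.12 at 1 h (6.16-fold), rank 7 of 10968 genes measured, and 0.30 ± 0.15 at 24 h (1.23-fold). At 24 h it was lower than at 1 h by a log2 difference of -2.33 ± 0.09, rank 15 from the lowest of 10926. With normexp these differences were 1.65 at 1 h and 0.13 at 24 h over unstimulated, and -1.52 at 24 h over 1 h. The 10 spots of Cxcl1 read between 8.35 and 8.54 at 1 h, between 5.29 and 5.82 at 24 h and between 5.11 and 5.46 without stimulus, in log2 processed signal, so those of 1 h did not overlap the others. Both comparisons share the unstimulated culture.

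Cxcl2, Cxcl6, Ppbp, Pf4, Ccl20 and Cxcr1 were not well above background in any of the 3 cultures. Cxcr2 was called above background at 1 h, at 4.63, against 3.27 at 24 h and 2.64 unstimulated, both not above it. That call rests on 1 spot: the 2 spots at 1 h read 2.03 and 6.32, a gap of 4.29. The difference was at least 1.32 ± 0.54 at 1 h over unstimulated and at most -1.15 ± 0.70 at 24 h over 1 h. These errors are pooled over probes of similar signal and do not reflect the gap between these 2 spots, which is wider than either difference. With more than 0.5 of the spots required above background, neither difference could be given and Cxcl1 was the one measured member. With normexp they were at least 0.35 and at most -0.37. Because Cxcr2 counted as measured only through the 1 h array, its direction was fixed by the filter. With both arrays required above background Cxcl1 was the 1 measured member. It was higher at 1 h over unstimulated, where 1.69% of all genes were at least 2-fold higher and 1.34% lower. At 24 h over unstimulated it did not reach 2-fold, where 0.635% were higher and 0.626% lower. At 24 h over 1 h it was lower, where 2.03% of all genes were lower and 1.86% higher.

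**Figure D4:**
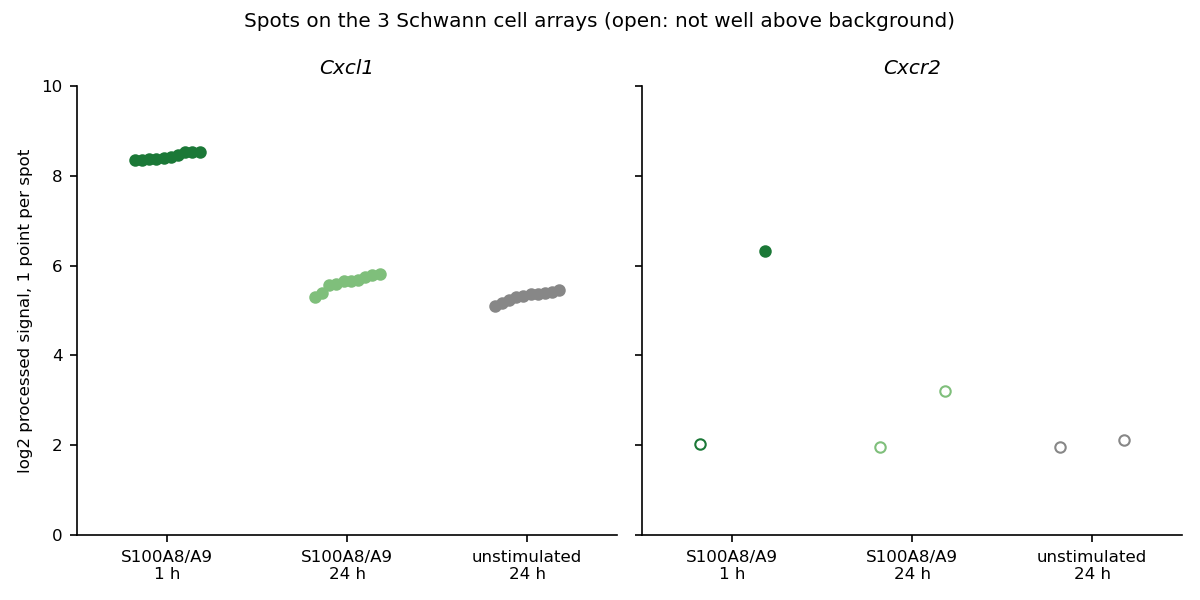
Log2 processed signal (vertical axis) of each single spot for Cxcl1 (10 spots) and Cxcr2 (2 spots) on the arrays of the Schwann cells at 1 h and 24 h of S100A8/A9 and unstimulated; open circles are spots not well above background. The 1 h spots of Cxcl1 lie together at 8.35 to 8.54, while those of Cxcr2 lie apart at 2.03 and 6.32.

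Genes around the chemokines were read at 1 h over unstimulated beside the same 1.69% of all genes higher and 1.34% lower. Of 12 NF-kB subunits and feedback inhibitors 0 were at least 2-fold higher and 1 was lower, the co-regulator Bcl3 (-1.16), with Nfkb2 at -0.40 next and Nfkbib highest at 0.05. Nfkbia, which encodes the inhibitor that NF-kB itself induces, was at 0. Of 13 inducing cytokines and receptors 1 was higher, the alarmin Il33 (1.45), followed by the decoy receptor Il1r2 (0.71); the interleukin 1 antagonist Il1rn was at -0.53 and Il17a at most -0.80. Of 3 other CXC chemokines measured 0 were higher and 1 was lower, Cxcl14 (-2.10), with Cxcl12 at -0.70 and Cxcl16 at 0.05. Some leukocyte markers were above background in the cultures and others were not. S100a8, S100a9, Msr1 and Cd163 were not well above background in any of the 3, while Cd68, Csf1r and Cd14 were in all 3. Cd14 stood at 6.96 at 1 h, 5.94 at 24 h and 5.99 unstimulated, a difference of 0.96 at 1 h over unstimulated. In each culture 6 of 12 macrophage genes were above background. Their log2 summed level was 9.85 at 1 h, 9.89 at 24 h and 9.79 unstimulated. The neutrophil list had 6 of 16 genes above background at 1 h, 8 at 24 h and 6 unstimulated.

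Across the 3 control samples the members had different levels. The contralateral nerve stood above the C-level cord in Pf4 (3.66 ± 0.04), Cxcl2 (2.10 ± 0.37) and Cxcl1 (1.74 ± 0.08), where 19.8% of all genes were at least 2-fold higher and 18.3% lower. Cxcr2 counted only through the nerve, at least 1.79 ± 0.64 higher. With normexp Pf4 was at 3.45, and Cxcl1 (0.99), Cxcl2 (0.86) and Cxcr2 (at least 0.27) did not reach 2-fold. Between unstimulated Schwann cells and the contralateral nerve Cxcl1 alone was measured in both, at -1.68 ± 0.13 (-0.87 with normexp), where 20.8% of all genes were at least 2-fold lower and 21.5% higher. Pf4 (at most -9.88 ± 0.10), Cxcl2 (at most -3.29 ± 0.24) and Cxcr2 (at most -1.22 ± 0.57) counted only through the nerve, so their direction was fixed by the filter; with normexp they were at most -6.73, at most -1.05 and at most -0.12. Over all 8 samples the order of Cxcl1 was proximal nerve, distal nerve, Schwann cells at 1 h, contralateral nerve, dorsal hemisection, Schwann cells at 24 h, unstimulated Schwann cells and C-level cord. The dorsal hemisection and the 24 h culture differed by 0.06 ± 0.10 and the unstimulated culture and the C-level cord by 0.06 ± 0.14, less than the spot error. For Ccl20 the proximal nerve came before the distal nerve, which stood 4.91 ± 0.31 above the next sample, the dorsal hemisection.

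Profiles over the 8 samples were compared among 12576 genes by the root mean square log2 difference after each gene's own mean was removed. Nearest to Cxcl1 was its receptor gene Cxcr2 (0.33), followed by the C-type lectin receptor Clec4e (0.87) and Il1r2 (0.90). Without the 1 h culture, where Cxcr2 rests on 1 spot, an alternative added after the data were seen, Cxcr2 was still nearest (0.27). Among those 7 samples Cxcr2 was not above background in 3, the 24 h and unstimulated cultures and the C-level cord, and rested on 1 of 2 spots in the dorsal hemisection, so these distances include background readings. Nearest to Cxcl2 were the pattern recognition gene Ptx3 (0.96), Slfn4 (1.17) and the myeloid receptor Trem1 (1.21). Cxcl1 was at place 253 from Cxcl2, at 2.28. They part in the Schwann cultures, where Cxcl2 was below background. Nearest to Ccl20 were Mcemp1 (0.67), the transcription factor Spib (1.01) and the neutrophil gelatinase Mmp9 (1.03). Nearest to Pf4 were Ccl6 (0.60), Clec10a (0.67) and Fcgr1a (0.68), which are all expressed by macrophages. Pf4 and these neighbours were not above background in any Schwann culture, and neither was Ccl20, which was also below it in the contralateral nerve. Their distances therefore include background readings too. These likenesses are descriptions over samples of 3 tissues and share the same arrays.

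Lists of genes around the chemokines were read in the cut nerve beside all genes, here and below. Distally 13.4% of all genes were at least 2-fold higher and 14.3% lower, with a median of 0.01. Proximally 11.1% were higher and 11.8% lower, with a median of 0. Of the 17 measured inducing cytokines and their receptors 8 were at least 2-fold higher distally and 9 of 16 proximally, and 0 were lower, with medians of 0.87 and 1.23. Il6 was highest, at least 5.45 and at least 7.36, then Il1rn, at 4.52 and 5.18, while the receptor chain Il1rap was lowest, at -0.84 and -0.80. Next lowest were Il33 distally (-0.08) and Csf1 proximally (-0.06). Between the segments Il6 (-1.90) and Il1r2 (-1.74) were at least 2-fold lower distally, 2 of 17 genes, with 0 higher. Over all genes 1.94% were lower and 1.24% higher.

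Of 12 measured NF-kB subunits and feedback inhibitors, 4 were at least 2-fold higher distally and 3 proximally, and 0 were lower, with medians of 0.45 and 0.37. Bcl3 led at 2.07 and 1.96, with Nfkbie second distally (1.45) and the ribonuclease gene Zc3h12a second proximally (1.32). Nfkbia was at -0.65 and -0.58, Rela at -0.42 distally and Zfp36, which destabilises chemokine transcripts, at -0.60 proximally.

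Other CXC chemokines included 8 measured genes, of which 2 were at least 2-fold higher in each cut segment and 0 lower (medians 0.47 and 0.44). They were Cxcl14 (2.40 distally, 2.81 proximally) and the interferon-induced Cxcl10 (2.0 and 1.04), and the T cell attractant Cxcl9 was at 0.09 and 0.02. The lowest were Cxcl12 distally (-0.26) and the B cell attractant Cxcl13 proximally (-0.20). In the cord the same list had 6 of 8 higher in the dorsal hemisection (median 1.64), where 10.2% of all genes were at least 2-fold higher. Cxcl13 was at 3.58 and Cxcl17 at 2.55, against Cxcl12 at -0.42 and Cxcl14 at -0.44. Cxcl1 and Cxcl2 did not reach 2-fold between these cord samples.

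Of 7 other chemokine receptors and decoys 3 were at least 2-fold higher distally and 3 proximally, with 1 and 0 lower (medians -0.23 and -0.12). Beside Ccr6 these included Cxcr3 distally (2.39) and Cxcr4 proximally (2.47). The decoy receptor Ackr2, which degrades inflammatory CC chemokines, was lowest in both (-1.16 and -0.95), next to the Cxcl12 scavenger Ackr3 distally (-0.73) and Cxcr6 proximally (-0.43). Signalling genes that act below the CXCR receptors in leukocytes had 11 of 16 higher distally and 8 proximally, and 0 lower (medians 1.31 and 0.93). The Src-family kinases Lyn (at least 3.66 and at least 3.11) and Fgr (2.80 and 2.54) led, and the widely expressed G protein gene Gnai3 was near 0 (-0.17 and -0.19), as were Pik3r5 distally (-0.20) and Gnai2 proximally (-0.21).

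Genes for leukocyte capture on vessels had 7 of 14 higher and 2 lower in each cut segment (medians 1.33 and 0.98). Among the highest were the integrin chain Itgal distally (at least 4.03) and the endothelial and platelet selectin Selp proximally (at least 3.52). The junction proteins F11r (-1.53 and -1.20) and Jam3 (-1.57 and -1.10) were the 2 lower ones. Of 11 receptors and enzymes for other neutrophil attractants 6 were higher distally and 5 proximally, and 0 lower (medians 1.35 and 0.56), led by the complement receptor C3ar1 (3.43 and 2.45) and Tlr2 (2.93 and 2.94). The formyl peptide receptor Fpr1, a neutrophil gene, was lowest in both (-0.82 and -0.45), next to the leukotriene receptor Ltb4r distally (0.07) and Alox5 proximally (-0.35).

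**Figure D5:**
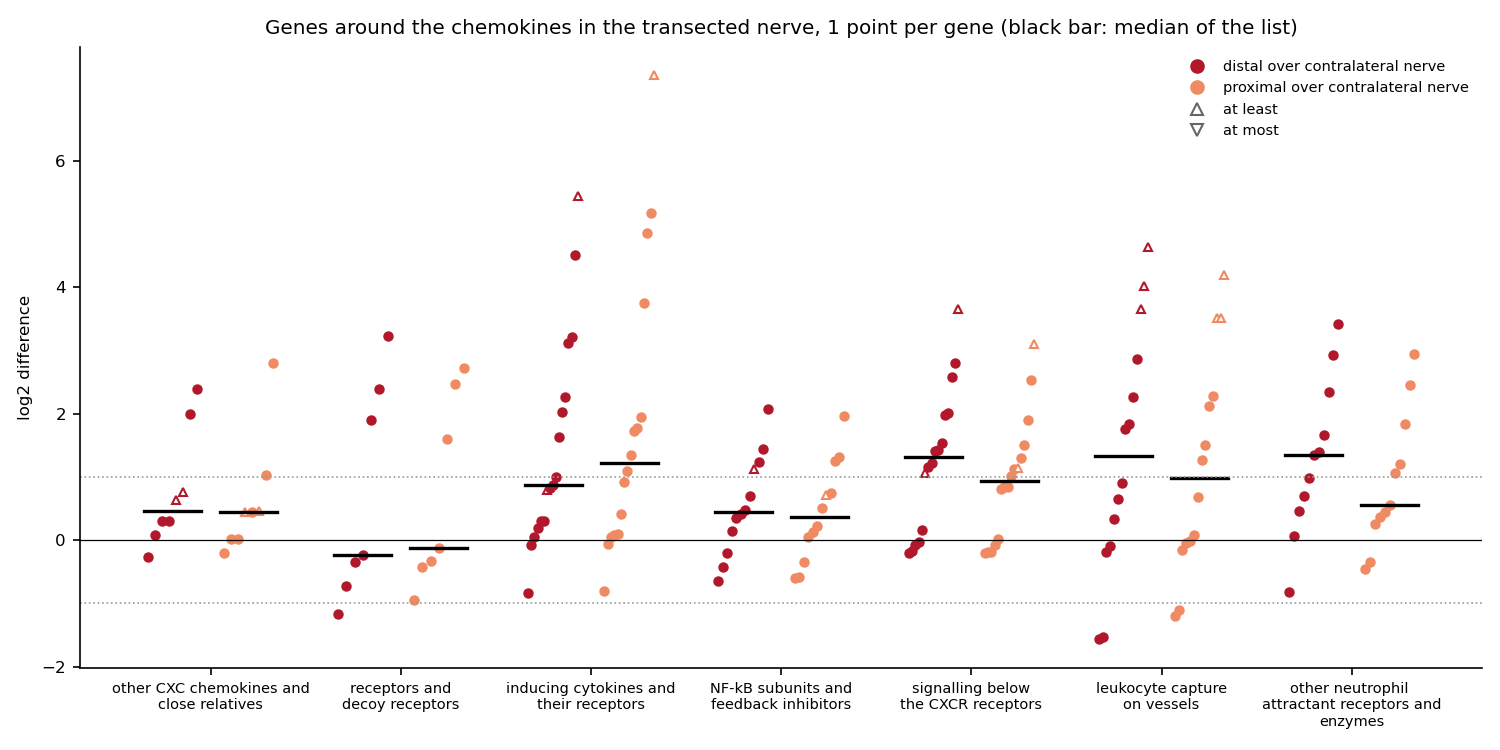
Log2 difference (vertical axis) of every measured gene of 7 lists in the distal and the proximal nerve over the contralateral nerve; black bars are list medians, open triangles are lower bounds and dotted lines mark 2-fold. Il6 and Il1rn stand highest among the cytokines, most NF-kB genes lie under 2-fold, and Ackr2, F11r and Jam3 are among the lowest points.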

How the data were processed

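The members and all gene lists were chosen with earlier results of these data known. Per the file headers, spots were read by Feature Extraction 10.7.3.1 on a rat array of build rn4; the submitters' processing notes name version 10.5. The deposited scanner columns hold intensity on a linear scale, and flags; background was already subtracted from the processed signal, per the file headers. The authors' deposited table holds log2 values of 24894 probes. Its columns all have the median 8.03, as after quantile normalization, but the method, the offset and the rule that chose the probes are not given in the sources used here. Log2 differences were taken between columns of this table, and a p-value was computed for none. For flags and spot errors each column was paired with the scan of the same ranking.

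Probes carry accessions, which were matched without versions to RefSeq symbols of GRCr8. Of 30367 probes 18006 matched, and 15213 of those had deposited values. A probe counted as well above background where at least 0.5 of its spots were. The spot error is the pooled SD of replicate spots in 1 of 10 bins of signal, over the root of the number of spots. Named list genes are the 2 highest and 2 lowest measured, except 1 gene that is not reported here, and a difference of 1 on the log2 scale is 2-fold. Precision is limited by 1 array a group and by 2 or 10 spots a probe. Python 3.11.15 and limma 3.58.1 in R 4.3.3 were used; the scripts were tested on simulated data. Alternatives were 75th percentile scaling and normexp with quantile normalization (offset 50, on the median signal, since the mean signal was not used here) of the matched scans, all probes, the mean of a gene's probes, other background rules, and the scans as filed. Protein sequences were not used here.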

Additional observations from a re-analysis of the deposited data

How the results depend on the processing

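Of 28 member differences of at least 2-fold, 28 kept sign and 2-fold with 75th percentile scaling, with all probes, with the mean of a gene's probes and with no background rule. With both arrays required above background 18 were given and 18 kept. Several of these outcomes were fixed in advance. Dropping the background rule can only widen a bound, and requiring both arrays leaves the same values. Only Ccl20 had a second probe among the members, so averaging probes left the others as they were. The setting with all probes used the same 75th percentile scaling of the same scans, so it was not a separate check. With normexp and quantile normalization 28 kept their sign and 18 their 2-fold. With more than 0.5 of the spots required above background, a rule added after the data were seen, 26 were given with the same sign and 24 kept 2-fold. Under normexp and with both arrays required, 1 member was higher in Schwann cells at 1 h, 1 higher in the dorsal hemisection and 1 lower at 24 h than at 1 h, in place of 2 each. With more than 0.5 of the spots required it was 1 higher at 1 h and 1 lower at 24 h than at 1 h. Both background rules give fewer differences by construction and cannot turn a sign. With normexp the cause was not tested.

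With the scans as filed, 13 of 25 kept their sign and 12 turned. Over the contralateral nerve the proximal values became at most -1.60 for Ccl20, at most -2.53 for Cxcl2 and at most -9.16 for Pf4. The distal over proximal values became 3.07 for Cxcl1, at least 7.62 for Cxcl2 and at least 0.83 for Cxcl6. The 1 h over unstimulated values became -4.89 for Cxcl1 and -3.98 for Cxcr2. The unstimulated culture over contralateral nerve values became 5.80 for Cxcl1, 7.34 for Cxcl2, 4.93 for Cxcr2 and 2.32 for Pf4. The counts of members at least 2-fold higher became 1 for the proximal over the contralateral nerve, 6 for the distal over the proximal nerve, 0 for the dorsal hemisection over the C-level cord, 0 for 1 h over unstimulated and 1 for 24 h over 1 h. Those at least 2-fold lower became 1 for the distal and 5 for the proximal over the contralateral nerve, 0 for the distal over the proximal nerve, 6 for 1 h and 6 for 24 h over unstimulated and 4 for 24 h over 1 h. The record compares other arrays than the headings do. By the ranking of the columns, most comparisons as filed set arrays of different tissues against each other. Shares over all genes are not given for them here, so these counts cannot be read as a result about the members.

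No paired analysis was possible because each group had 1 sample, and for the same reason no sample was left out. All arrays lay on 1 slide in 1 scan, so the slide as a block was not run. Cxcl6, Ppbp and Cxcr1 lay near background, as did Ccl20 and Cxcr2 in cord and cultures.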

Other observations

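In the RefSeq gene order of rat chromosome 14, Cxcl2, Cxcl1, Pf4, Ppbp and Cxcl6 lie in this order in 1 stretch, with genes of other families on both sides. Cxcl3 lies between Cxcl1 and Pf4 and had no value under its symbol, so its level is not known here. On the side of Cxcl2 the epidermal growth factor receptor ligands Areg and Ereg are near. Areg stood at 4.62 in the distal nerve and 5.95 in the proximal nerve and was not well above background in the contralateral nerve (1.80), a log2 difference of at least 1.63 distally and at least 2.96 proximally. Ereg was measured in the proximal nerve alone among the 8 samples (4.43, at least 1.44 over the contralateral nerve). Mthfd2l, a mitochondrial folate enzyme gene directly beside Cxcl2, was at 0.69 distally and 0.47 proximally. On the side of Cxcl6 the albumin family gene Albfm1 was at -0.45 and -0.23, and albumin, Alb, at -0.29 distally and -1.69 proximally. In the Schwann cultures Areg read 7.12 at 1 h, 6.71 at 24 h and 5.90 unstimulated, while its neighbours Cxcl2 and Ereg were below background there.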
